A study of Mus musculus with 12 samples.

Results

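The cytosolic ribosome is built from ribosomal RNA and a set of ribosomal proteins, and the genes for those proteins were followed here through mouse small intestine. Members were all genes whose symbol begins with Rpl or Rps and a digit, apart from the S6 kinases (Rps6k genes), which phosphorylate a ribosomal protein and are no part of the ribosome. The rule matched 86 transcripts of 80 symbols among 19012 symbols; where a symbol had several transcripts, its longest was used. Of the 80 members, 73 encode the standard proteins, 43 of the large subunit and 30 of the small subunit. A further 5 (Rpl3l, Rpl22l1, Rpl36al, Rpl39l and Rps27l) are paralogs, second genes that encode a near copy of a standard protein. The remaining 2, Rpl7l1 and Rps19bp1, fit the symbol rule although their products are not subunits of the cytosolic ribosome.

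Poly(A) RNA had been sequenced from freshly isolated crypts, freshly isolated villi and organoids of mouse duodenum, jejunum and ileum, in 12 libraries. Crypts, the pits that hold stem, Paneth and dividing cells, gave 2 libraries per origin, and villi, the projections covered by mature enterocytes, gave 1 per origin. Organoids, 3-dimensional epithelial cultures started from crypts, had been kept for 12 weeks and gave 1 library per origin. No genotype, strain, sex or age is given in the labels, and they do not say whether libraries of a group came from separate animals, so p-values measure the spread between these libraries, which may be technical. In this bulk RNA, fewer cells of a type and less RNA per cell cannot be told apart.

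Ribosomal proteins assemble in the nucleolus with ribosomal RNA into a small subunit, which reads the mRNA, and a large subunit, which joins amino acids. Cells that grow and divide make many ribosomes, and translation of ribosomal protein mRNAs is controlled by mTOR through a run of pyrimidines at the very 5′ end of the mRNA, the terminal oligopyrimidine (TOP) tract. In the intestinal epithelium, cells divide in the crypt and stop dividing as they move onto the villus.

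The TOP tract is the sequence feature by which these genes are known as a family. Annotated start sites are shown for some of the members named in the results. Each line holds 10 bases before the annotated start and 20 from it, 5′ to 3′, from RefSeq promoter windows on GRCm38.p6. Capitals mark a run of at least 5 C or T that begins with C no more than 5 bases from the annotated start.
Rps18: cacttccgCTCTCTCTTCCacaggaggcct
Rps24: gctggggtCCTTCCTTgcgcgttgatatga
Rps6: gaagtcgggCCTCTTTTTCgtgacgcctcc
Rps27: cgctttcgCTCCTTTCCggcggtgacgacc
Rps27l: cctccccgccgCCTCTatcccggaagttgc
Rpl22l1: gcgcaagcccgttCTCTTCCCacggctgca
Rps4x: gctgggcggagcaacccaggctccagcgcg
Rps19bp1: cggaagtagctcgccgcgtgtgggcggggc
The positions were chr17:33955646-33955675 (minus strand) for Rps18, chr14:24490668-24490697 (plus) for Rps24, chr4:86857348-86857377 (minus) for Rps6 and chr3:90213629-90213658 (minus) for Rps27. They were chr9:66946076-66946105 (plus) for Rps27l, chr3:28805498-28805527 (plus) for Rpl22l1, chrX:102189372-102189401 (minus) for Rps4x and chr15:80264287-80264316 (minus) for Rps19bp1. Each spans the first bases of exon 1 and the bases before it. Rps24 and Rps27l each have another annotated start window, not printed, without such a run. Those windows are chr14:24490743-24490772 for Rps24 and chr9:66946403-66946432 for Rps27l. The printed lines are a choice and do not show how common the tract is among members. Start sites were not measured here, so a line without capitals, as for Rps4x, does not show that the mRNA lacks a tract.

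Promoter windows existed for 61 members, with 73 windows in all. Such a tract stood in 30 of the 73 windows (41.1%), against 18.3% of all 32851 windows. The letters CCGGAAG, a site of ETS factors, occurred on either strand in 34.2% of the members' windows of 300 bases and in 8.86% of all windows. The letters GCCATNTT, a site of YY1, occurred in 23.3% and 6.05%. GGGCGG, a site of Sp1, stood in 58.9% and 35.7%, and CACGTG, the E-box of Myc, in 10.96% and 7.15%. The TATA box letters TATAAA were the one motif of these 5 with a lower share in members, 8.22% against 13.6%. A match describes the letters in a window, and none of these shares was tested.

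RPKM, the unit of all levels below, counts reads relative to exon length and to the reads of the library. The libraries held 5268480 to 18591819 reads by the step size of their values, of which annotated genes took 44.3% to 67.6% in crypts; the shares were 58.8% to 75.02% for organoids and 67.8% to 75.8% for villi. The median member was counted from 229 to 407.5 reads in a crypt library, from 1520 to 1896.5 in an organoid library and from 49 to 126 in a villus library, so villus levels are the least precise. Marker genes of enterocytes and stem cells separated villi from crypts. The summed RPKM of 17 enterocyte genes was 52870 to 112100 in villi and 869 to 26200 in crypts, and that of 10 stem cell genes was 20.6 to 44.1 in villi, 133 to 1237 in crypts and 592 to 756 in organoids. Crypt replicate 2 held 9186 to 26200 RPKM of enterocyte genes and replicate 1 held 869 to 2113. Stem cell genes summed to 473, 141 and 133 RPKM in replicate 2 of duodenum, jejunum and ileum. In replicate 1 they summed to 502, 1237 and 1134.

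Of all reads in annotated genes, members took 3.11% and 2.63% in the duodenal crypt libraries (replicates 1 and 2), 2.57% and 1.89% in the jejunal and 2.55% and 2.37% in the ileal ones. In organoids the share was 10.6% in duodenum, 6.48% in jejunum and 8.67% in ileum. In villi it was 0.260%, 0.546% and 0.719% in the same order. Every organoid library therefore lay above every crypt library, and every villus library below. The mean share was 2.52% ± 0.396 (SD, n = 6) in crypts, 8.60% ± 2.08 (n = 3) in organoids and 0.508% ± 0.232 (n = 3) in villi. Single genes held to this order less strictly: 52 of the 80 members had every organoid library above and every villus library below all crypt libraries. Counts of members without overlap, here and below, were made for members only. With no share over all genes beside them, they do not show that members differ from other genes. The plot of member levels by library shows the standard members.

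**Figure D1:**
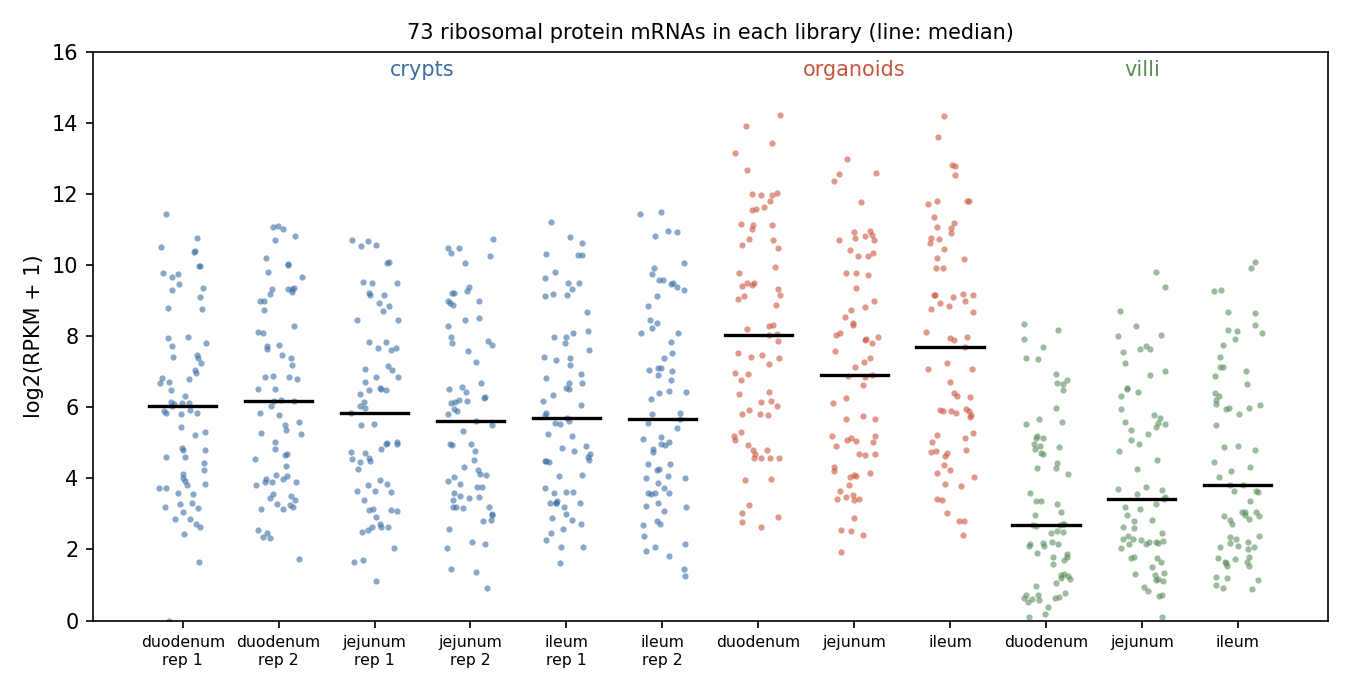
Level of the 73 standard ribosomal protein mRNAs in each of the 12 libraries, as log2(RPKM + 1) on the y axis; each point is a gene, the black line is the median, and crypts are blue, organoids red and villi green. All 3 organoid medians lie above and all 3 villus medians below the 6 crypt medians, and the villus medians step up from duodenum to jejunum to ileum.

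Levels differed widely among the members. The highest median RPKM over the 12 libraries belonged to Rps15 (2089.7), a protein at the head of the small subunit, followed by Rpl32 (1705) of the large subunit. The lowest belonged to the paralog Rpl3l (0), known from skeletal muscle and heart, to the paralog Rpl39l (0.168), known from testis, and to the standard members Rpl27 (1.27) and Rps29 (2.11). The order was much alike in all 3 tissues: over the 73 standard members, the log2 level correlated between tissue means with r = 0.978 for crypts and organoids, 0.969 for crypts and villi and 0.964 for organoids and villi, where the points share libraries, transcript lengths and mapping. The summed RPKM of the large subunit was 0.571 to 0.879 times that of the small subunit in the 12 libraries.

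Equal amounts of each protein enter a ribosome, while mRNA levels per length ran from 1.27 to 2089.7 RPKM among standard members. Mouse ribosomal protein genes have many processed pseudogenes, so each transcript was cut into words of 50 bases, the read length, and the words were looked up in 13607 annotated pseudogene transcripts (GENCODE M21, GRCm38). The share of words found in no pseudogene ran from 14.4% to 100%, with a median of 50.7%. The 36 standard members with under 50% of such words had a median level of 23.8 RPKM, and the 37 others a median of 108 RPKM. For 13 of the 73 genes the annotated transcript and the deposited exon length differed by more than 1.5 times, among them Rps20 (3706 against 502 bases), so that their words are not all from the measured exons. Across the 73 genes the level correlated with the share at r = 0.461 and rho = 0.421, where the genes share libraries. Rpl3 had the lowest share and a median of 24.1 RPKM. The sources used here do not say how reads with several matches were counted, and the part of shared reads in the levels was not tested. Over the 72 tested standard members, rho with the share was 0.231 for the log2 ratio of organoids to crypts. It was 0.0284 for that of villi to crypts and 0.157 for that of organoids to villi. With the crypt level, the same 3 ratios had rho of 0.419, 0.0780 and 0.324. The part of shared reads in the changes between tissues was not tested.

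**Figure D2:**
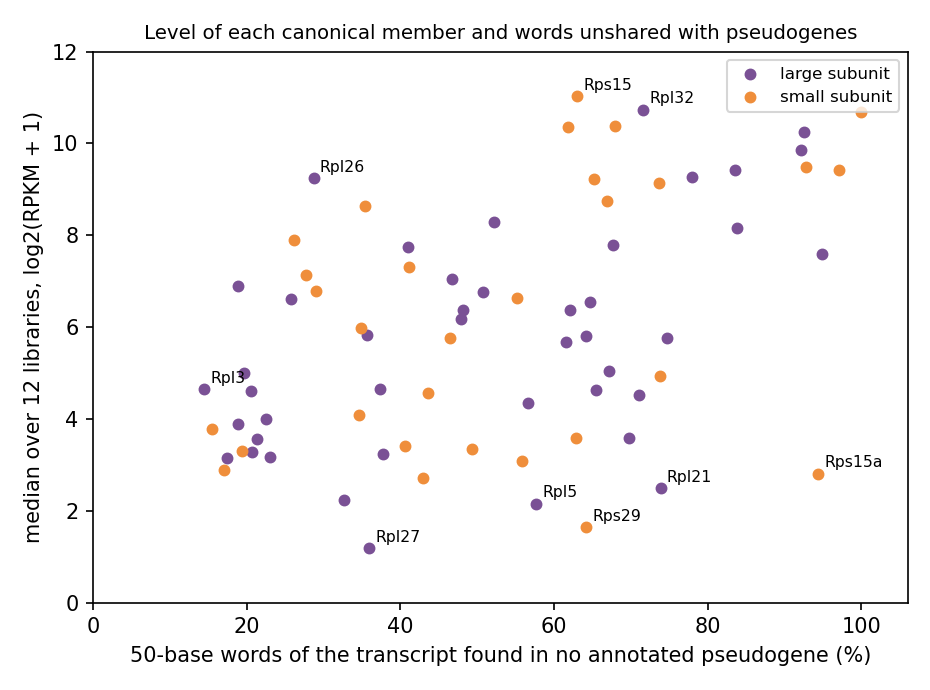
Median log2(RPKM + 1) over the 12 libraries (y axis) of the 73 standard ribosomal protein genes against the percent of 50-base words of the transcript found in no annotated pseudogene (x axis); purple points are large subunit genes and orange points small subunit genes. Genes under 50% have a median of 23.8 RPKM and the others a median of 108 RPKM. Rps15a, Rpl21, Rpl5 and Rps29 are low with over 50% of their words in no pseudogene. The deposited exon lengths of Rps15a and Rpl21 are 5134 and 1599 bases, beside a member median of 675. The words of Rpl5 come from a transcript of 2045 bases, against 1002 deposited.

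Organoids were compared with crypts over all origins. Of the 77 members tested, 64 were higher in organoids at an adjusted p under 0.05 and 0 were lower, while 23.4% of all 11690 genes tested were higher and 24.2% lower. All 77 fold changes were positive, with a median log2 change of 1.50 (2.83-fold) and a range of 0.02 to 3.15, beside a median of 0.0045 over all genes. The lowest organoid library lay above the highest crypt library for 59 of the 80 members, a count not made over all genes. Rps29, Rpl39l and Rpl3l had too few reads to be tested. Rpl27 passed the read filter only through its organoid libraries, where it is high, and it is counted among the 64. Its call therefore depends on the libraries that admitted it, and it was lost in 5 of 23 other settings. The small subunit had 27 of 29 tested members higher (median 1.94) and the large subunit 34 of 43 (median 1.43); the difference between subunits was not tested.

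The largest rise was that of Rps4x, a small subunit protein encoded on the X chromosome. Its crypt libraries ran from 76.0 to 275 RPKM with a median of 139, and its organoids held 1691, 832 and 1402 RPKM in duodenum, jejunum and ileum. Every organoid value exceeded the highest crypt value, and the log2 change was 3.15 ± 0.45 (SE; limma, adjusted p = 0.000142). Rps28, a small protein at the mRNA exit, had 2.28 to 12.5 RPKM in crypts (median 9.21) and 124, 35.3 and 58.6 in organoids, a log2 change of 2.87 ± 0.43 (limma, adjusted p = 0.000216). Rpl32 of the large subunit rose from 1313 to 2879 RPKM in crypts (median 1705) to 18972, 6083 and 18603 in organoids (log2 change 2.85 ± 0.51, limma adjusted p = 0.000716). Rps18, at the head of the small subunit, rose from 249.6 to 718 RPKM (median 397) to 3005, 1970.4 and 3562 (2.69 ± 0.47, limma adjusted p = 0.000563). In none of these 4 did the groups overlap.

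At the other end, 13 members did not pass the threshold between organoids and crypts. Rps19bp1, whose product binds Rps19 and is no subunit, had 30.5 to 42.6 RPKM in crypts (median 35.9) and 45.5, 28.3 and 38.8 in organoids, a log2 change of 0.02 ± 0.25 (limma, adjusted p = 0.961). Rpl19, which lies near the peptide exit, had 4.21 to 23.2 RPKM in crypts (median 8.77) and 14.6, 9.70 and 9.52 in organoids (0.21 ± 0.37, limma adjusted p = 0.661). Rpl21 had 3.47 to 6.17 RPKM in crypts (median 4.72) and 5.77, 4.68 and 5.90 in organoids (0.21 ± 0.23, limma adjusted p = 0.458). The groups of these 3 genes overlapped. Rpl28 (0.30), Rpl7l1 (0.49), Rpl17 (0.55), Rps12 (0.61) and Rps2 (0.62) had the next smallest log2 changes.

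**Figure D3:**
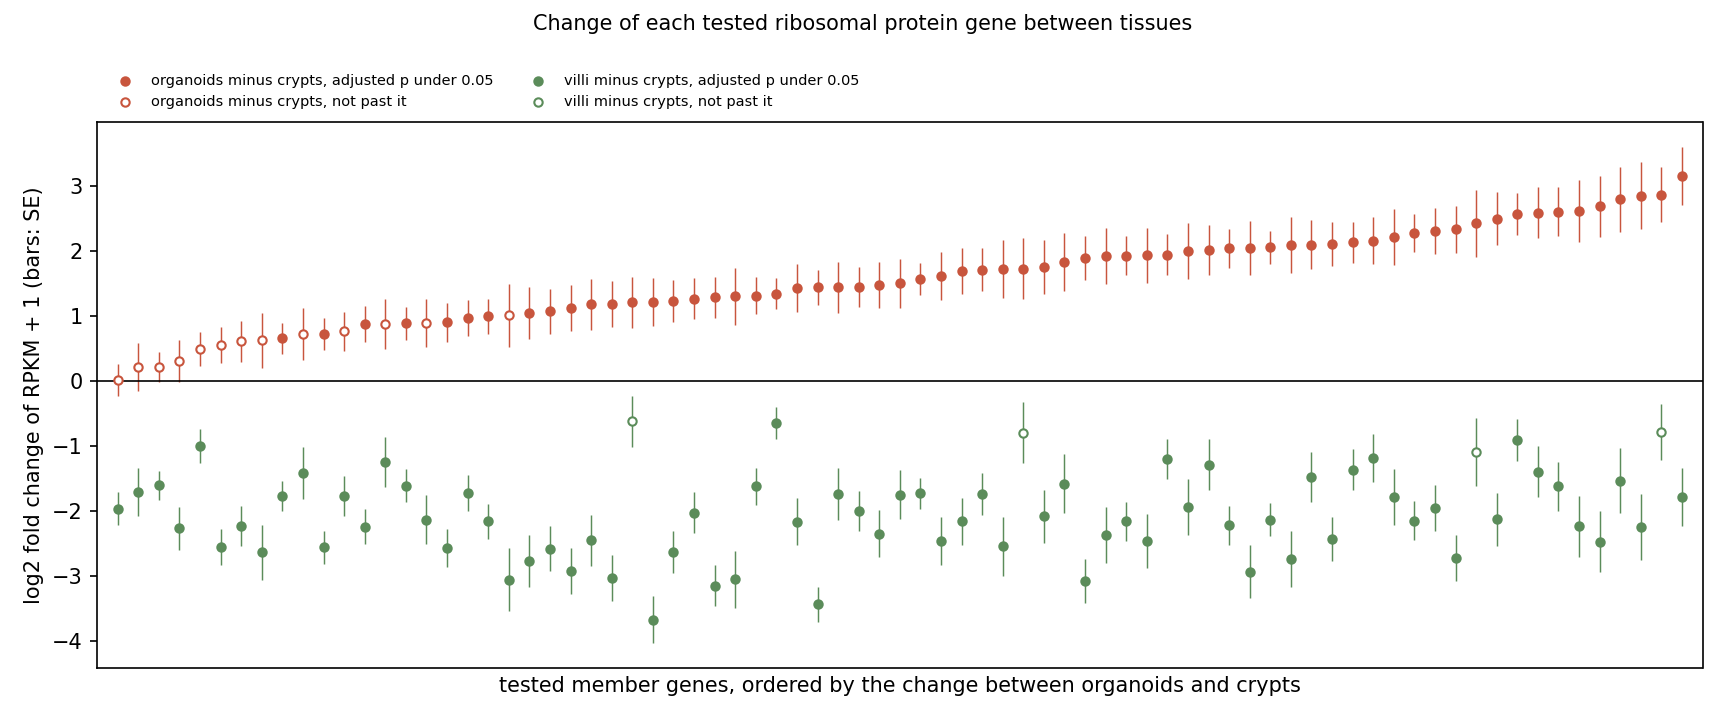
Log2 fold change of RPKM + 1 (y axis) for each of the 77 tested members (x axis, ordered by the change between organoids and crypts); red is organoids minus crypts, green is villi minus crypts, bars are standard errors, and filled points have a limma adjusted p under 0.05. All red points lie at or above 0 (0.02 to 3.15) and all green points below it (-3.67 to -0.62), and the order of the red points is not that of the green.

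Leaving out the duodenal organoid library, which held the most member reads per gene read, left 44 of the 77 members higher, and leaving out the ileal one left 53. Quantile normalisation, which forces all libraries to 1 distribution, left 48 and lowered the median log2 change to 0.995; calls lost there include those of Rps15 and Rps3.

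Villi were then compared with crypts. Of the 77 members, 73 were lower in villi and 0 higher, against 32.8% of all genes tested lower and 20.5% higher. All 77 changes were negative, with a median of -2.14 (4.4-fold lower) and a range of -3.67 to -0.62, beside a median of -0.20 over all genes. The highest villus library lay below the lowest crypt library for 69 of the 80 members, a count not made over all genes. Rpl27, Rps27l, Rps28 and Rps14 did not pass the threshold (log2 changes -0.62, -0.80, -0.79 and -1.10), although with the replicate number as a block Rps14 had an adjusted p of 0.0370 (limma), against 0.0891 without it.

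The largest fall was that of Rps21, a small subunit protein, with 455 to 766 RPKM in crypts (median 564) and 29.3, 40.3 and 67.1 in villi of duodenum, jejunum and ileum (log2 change -3.67 ± 0.37, limma adjusted p = 8.33e-06). Rps24 had 130.1 to 183 RPKM in crypts (median 157) and 9.25, 18.0 and 28.4 in villi (-3.15 ± 0.31, limma adjusted p = 8.25e-06). In both the highest villus value was under the lowest crypt value. Rpl35a (-3.08 ± 0.34) and Rpl13 (-3.06 ± 0.48) of the large subunit were also among the 5 largest falls. Rpl35a held 55.9 to 90.3 RPKM in crypts and 6.88, 8.74 and 9.24 in villi, and Rpl13 held 15.6 to 67.1 and 1.29, 5.06 and 4.18. The groups did not overlap for either gene, and leaving out any 1 library did not end these 4 calls.

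Organoids and villi stood furthest apart of the 3 pairs of tissues by their median. All 77 tested members were higher in organoids, against 36.2% of all genes tested, with a median log2 change of 3.63 (12.4-fold) and a range of 1.49 to 5.16. The 77 include Rpl27, which passed the read filter only through its organoid libraries. The lowest organoid library exceeded the highest villus library for 79 of 80 members, Rpl3l (listed at 0 in all 6) being the exception. That count was not made over all genes either. Rps18 changed most (5.16 ± 0.54, limma adjusted p = 7.21e-06), with 1970.4 to 3562 RPKM in organoids and 35.4, 89.4 and 139 in villi. Rpl32 (5.10 ± 0.59), Rps26 (4.98 ± 0.48) and Rpl35a (4.96 ± 0.39) were also among the 5 largest changes. In Rps18 the lowest organoid value was above the highest villus value.

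Members with known special roles moved in the same direction as the rest, with differences in size. Rpl5 and Rpl11 bind the 5S ribosomal RNA and, when free, the p53 regulator Mdm2. Rpl5 had 2.53 to 4.55 RPKM in crypts (median 3.46), 6.54, 4.88 and 7.10 in organoids and 0.0762, 0.0779 and 0.988 in villi. The duodenal and jejunal villus values of Rpl5 lie near the floor and rest on very few reads. Rpl11 had 5.57 to 13.0 RPKM in crypts (median 9.10), 38.7, 10.1 and 12.7 in organoids and 0.514, 1.18 and 2.36 in villi. Both were lower in villi (limma adjusted p = 6.40e-05 and 0.000424). Between organoids and crypts Rpl11 did not pass the threshold (0.89, limma adjusted p = 0.0632, and 0.0454 with the replicate block) and its groups overlapped. Rpl5 did (0.65), but its call was lost without crypt jejunum 1, either crypt ileum library, any organoid library or the jejunal villus library, with limma adjusted p from 0.0533 to 0.134, and also without the filter, with a pseudocount of 0.1, under limma-voom, when scaled to gene reads and with crypt replicate 2 alone.

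Rps6, the main substrate of S6 kinase downstream of mTOR, had 10.2 to 14.6 RPKM in crypts (median 12.7), 22.7, 15.9 and 25.8 in organoids and 0.657, 1.23 and 2.13 in villi. The groups did not overlap. The fall in villi was -2.56 ± 0.25 (limma, adjusted p = 7.67e-06), and no library left out ended it. The rise in organoids (0.72) was lost without either crypt ileum library, crypt jejunum 2, the duodenal or the ileal organoid library (limma adjusted p 0.0585 to 0.153), and also with crypt replicate 1 alone, with a pseudocount of 0.1 and when scaled to gene reads. Rps19, the gene most often mutated in Diamond-Blackfan anaemia, had 39.2 to 56.1 RPKM in crypts (median 53.4), 266, 138 and 243 in organoids and 5.46, 9.68 and 17.6 in villi. It rose in organoids by 2.04 ± 0.30 (limma, adjusted p = 0.000192) and fell in villi by -2.23 ± 0.30 (limma, adjusted p = 6.83e-05), with no overlap.

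Rps27a, made as a fusion to ubiquitin, had 1.71 to 10.3 RPKM in crypts (median 5.55), 22.7, 15.99 and 31.3 in organoids and 1.49, 1.43 and 2.11 in villi. It rose in organoids (1.94 ± 0.31, limma adjusted p = 0.000338), while crypt jejunum 2 (1.71) lay under the ileal villus library (2.11), so those groups overlapped. Its fall (-1.20, limma adjusted p = 0.00599) was lost without the duodenal villus library (0.0588). Rps2 and Rps3 sit where mRNA enters the ribosome and 1 of them, Rps3, passed in organoids against crypts (1.99, limma adjusted p = 0.00225). Rps3 had 510.1 to 1025 RPKM in crypts (median 682) and 3585, 1798 and 3528 in organoids. Rps2 had 199.9 to 426 RPKM in crypts (median 239) and 562, 259 and 429.6 in organoids, so that its groups overlapped and it did not pass (0.62 ± 0.42, limma adjusted p = 0.241). In villi both were lower, Rps2 at 18.4, 42.8 and 82.7 RPKM and Rps3 at 99.1, 197 and 319.

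Rpl38, Rps25 and Rpl10a have been reported to act in the translation of particular mRNAs. Rpl38 had 53.6 to 123 RPKM in crypts (median 71.5), 291, 114 and 134 in organoids and 5.38, 11.6 and 11.4 in villi. Rps25 had 25.6 to 42.5 in crypts (median 29.8), 107, 33.9 and 59.6 in organoids and 3.46, 4.22 and 6.15 in villi. Rpl10a had 11.1 to 22.04 in crypts (median 14.9), 26.6, 24.2 and 37.7 in organoids and 1.09, 3.57 and 3.30 in villi. All 3 were lower in villi with no overlap. All 3 passed in organoids against crypts, but each call was lost without the duodenal (limma adjusted p 0.168, 0.205 and 0.0746) or the ileal (0.0546, 0.0905 and 0.0916) organoid library and when scaled to reads in annotated genes, and those of Rpl38 and Rps25 under quantile normalisation.

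The paralogs were set beside their main copies. Rpl22l1 held 96.3 to 301 RPKM in crypts (median 134), 833, 372 and 519 in organoids and 24.5, 69.1 and 73.7 in villi. The standard copy Rpl22, which binds RNA and is known to repress its paralog, held 167 to 309 (median 193), 1409, 649 and 1168, and 34.1, 53.8 and 77.8. The ratio of Rpl22l1 to Rpl22 had a median of 0.748 in crypts (0.548 to 0.974), 0.574 in organoids (0.445 to 0.591) and 0.947 in villi (0.718 to 1.29). The ranges of crypts overlapped with those of both other tissues, and those of organoids and villi did not overlap. Both genes rose in organoids (Rpl22l1 1.83, Rpl22 2.30) and fell in villi (-1.58 and -1.96). For Rpl22l1 the rise was lost without the duodenal organoid library (limma adjusted p = 0.0516) and the fall without the duodenal villus library (0.116).

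Rps27l, whose gene is a known target of p53, had the higher RPKM of its pair. It held 41.7 to 230.2 RPKM in crypts (median 99.2), 519.8, 184 and 415 in organoids and 44.3, 55.4 and 81.6 in villi. Rps27 held 8.09 to 12.2 (median 9.62), 26.8, 13.1 and 19.6, and 2.24, 1.83 and 3.87. The ratio of Rps27l to Rps27 therefore had medians of 10.3 in crypts (3.41 to 28.5), 19.4 in organoids and 21.1 in villi, and crypts overlapped with both. In villi this ratio rests on few reads of the short Rps27. Rps27 fell in villi (-1.61, limma adjusted p = 0.000189), and Rps27l did not pass (-0.80, limma adjusted p = 0.172). In organoids both passed, and both calls were lost without the duodenal organoid library (limma adjusted p = 0.0985 and 0.0809), that of Rps27l also without the ileal one (0.0506) and that of Rps27 also when scaled to gene reads. Rpl36al exceeded Rpl36a in RPKM by medians of 4.59, 4.88 and 3.56 times in crypts, organoids and villi. The share of words found in no pseudogene was 77.6% for Rps27l and 40.5% for Rps27. It was 53.5% for Rpl36al and 37.3% for Rpl36a. The part of shared reads in these ratios was not tested, so they need not be ratios of mRNA amounts. Rpl39l stayed at or under 1.61 RPKM in every library, and Rpl3l was above 0 in 2 crypt libraries (0.209 and 0.108 RPKM).

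Rpl7l1, which works in ribosome assembly and not in the finished ribosome, moved less than Rpl7 in organoids. Rpl7l1 held 15.9 to 34.7 RPKM in crypts (median 23.0), 35.1, 26.6 and 35.8 in organoids and 8.94, 12.0 and 11.8 in villi. Rpl7 held 58.9 to 209 (median 131), 880.0, 504 and 959, and 24.5, 44.7 and 54.6. The ratio of Rpl7l1 to Rpl7 had a median of 0.167 in crypts (0.141 to 0.325) and 0.0399 in organoids (0.0374 to 0.0527), with no overlap. Rpl7 rose in organoids by 2.60 ± 0.38 (limma, adjusted p = 0.000169) and Rpl7l1 did not pass (0.49 ± 0.26, limma adjusted p = 0.140). In villi the ratio was 0.216 to 0.365 (median 0.268) and overlapped with crypts. Both genes fell there, Rpl7 by -1.63 and Rpl7l1 by -1.002 (limma adjusted p = 0.00297 and 0.00594), the call of Rpl7l1 being lost without the duodenal villus library (0.0510).

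**Figure D4:**
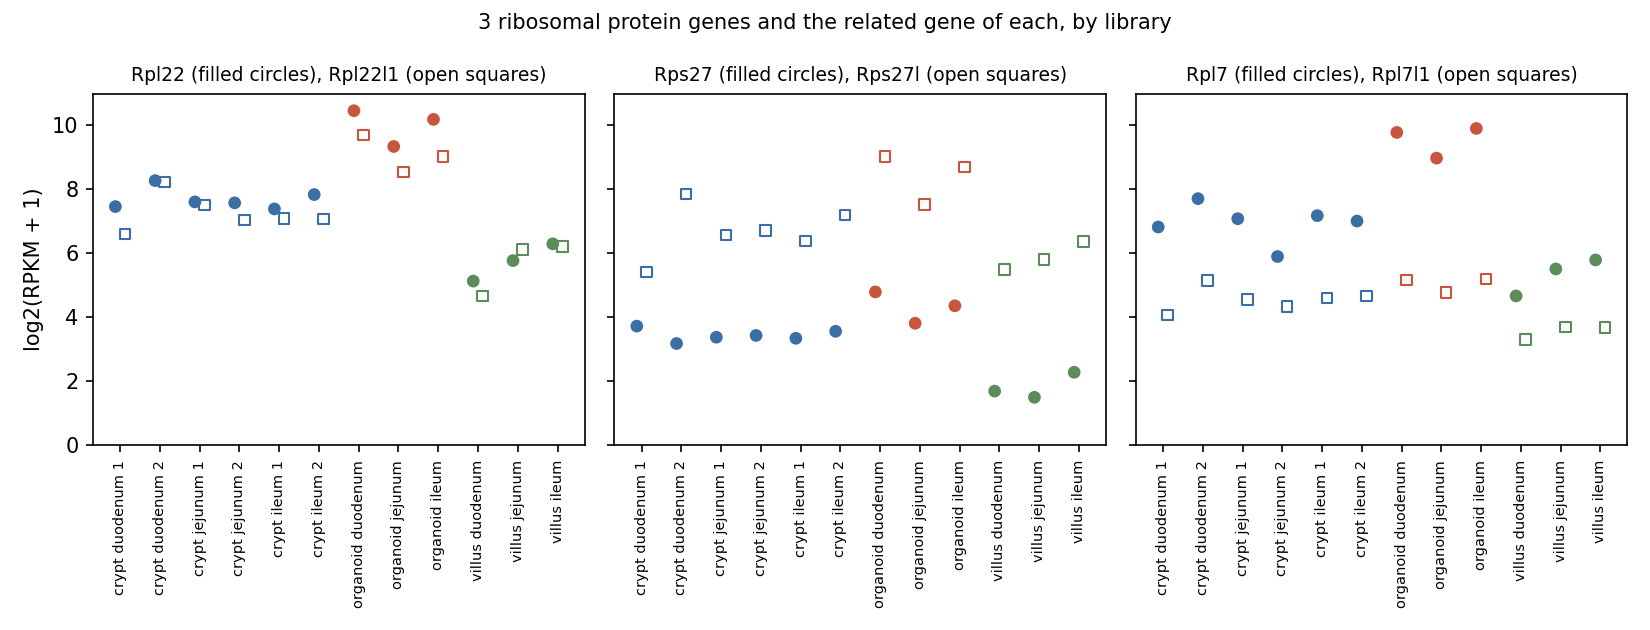
Log2(RPKM + 1) (y axis) in the 12 libraries (x axis) of Rpl22 and Rpl22l1, Rps27 and Rps27l, and Rpl7 and Rpl7l1; filled circles are the standard gene and open squares the related gene, in crypts (blue), organoids (red) and villi (green). Rps27l lies above Rps27 in every library, and Rpl7l1 stays between 8.94 and 35.8 RPKM while Rpl7 runs from 24.5 to 959.

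Ribosomal proteins whose symbols fall outside the rule were looked at in the same way. They numbered 6, among them Rpsa, the stalk proteins Rplp1 and Rplp2, the ubiquitin-like fusion Fau and Gnb2l1 (Rack1). In organoids against crypts 5 of the 6 changes were positive and 1 negative, and 3 passed the threshold as higher, Fau, Gnb2l1 and Rplp1. Villi were lower past the threshold for 5 of the 6. Rplp1 had 1569 to 2458 RPKM in crypts, 12353, 5017 and 6979 in organoids and 197, 513 and 629 in villi. Rpsa, with 12.5 to 54.2 RPKM in crypts and 28.3, 18.0 and 15.7 in organoids, did not pass there (-0.25, limma adjusted p = 0.602). Fau was the exception in villi, with 42.6 to 111 RPKM in crypts and 86.4, 81.2 and 101 in villi (0.20, limma adjusted p = 0.608).

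Other genes of translation and ribosome production shared the direction of the members in organoids in part. Of 21 other mRNAs known to carry a TOP tract, 12 were higher in organoids than in crypts and 1 was lower (median 1.29), and 13 were lower in villi (median -1.61). These 21 include the 6 proteins above and elongation factors. The elongation factor Eef1b2 had 578 to 1245 RPKM in crypts and 7527, 4187 and 6518 in organoids, and the poly(A)-binding protein Pabpc1 was the one that fell, from 365 to 701 RPKM to 201, 186 and 183. Of 7 elongation factors 3 were higher and 0 lower in organoids (median 0.54), and 5 were lower in villi (median -1.43). Of 34 ribosome assembly genes, 9 were higher in organoids than in crypts and 9 lower (median 0.18), while 33 of the 34 were lower in villi (median -1.97). The nucleolar protein Npm1 had 78.4 to 161 RPKM in crypts and 519, 363 and 523 in organoids. Ncl, another, had 21.002 to 52.7 and 34.2, 43.7 and 37.1. In villi both fell, Npm1 to 9.46, 16.2 and 16.8 RPKM and Ncl to 1.73, 2.44 and 2.87. Of 25 initiation factors 9 were higher and 4 lower in organoids, and 16 were lower and 1 higher in villi. Of 75 mitochondrial ribosomal protein genes 31 were higher and 1 lower in organoids (median 0.64), and 50 were lower in villi (median -1.07).

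Regulators and markers of the tissues were counted beside them. Among 15 proliferation genes 1 was higher and 3 were lower in organoids than in crypts, and all 15 were lower in villi (median -2.69). Among 10 stem cell genes 1 was higher and 3 lower in organoids, and 9 lower in villi. Among 8 genes of the Myc and Max group, 2 were higher and 1 was lower in organoids than in crypts. Their median there was -0.21, with 6 of the 8 changes negative. In villi 5 of the 8 were higher and 2 lower than in crypts. Of these, Myc, a transcription factor that drives ribosome production, had 9.97 to 22.4 RPKM in crypts, 32.1, 27.2 and 31.8 in organoids and 0.891, 1.69 and 2.06 in villi. Mxd1, which opposes Myc, had 2.50 to 15.1 RPKM in crypts, 1.38, 2.01 and 2.37 in organoids and 152 to 162 in villi. Among 9 enteroendocrine genes, markers of hormone cells, 6 were higher and 0 lower in organoids than in crypts (median 1.56), and their summed RPKM was 1194 to 2785 in organoids and 206 to 588 in crypts. Their part in the higher member levels of organoids was not tested. Of 11 genes of the mTOR and S6 kinase pathway, 2 were higher and 4 lower in organoids. Of 8 tested lymphocyte genes all 8, and of 7 stromal genes all 7, were higher in villi than in crypts. In the fit of crypts alone, 2 lymphocyte and 2 stromal genes passed the read filter. Most of the others could pass only with libraries of other tissues, among them villi, where they are high. These counts therefore depend on the libraries that admitted the genes. The summed RPKM of the lymphocyte and stromal genes was 49.4 to 196 and 27.4 to 75.3 in villi, against 1.06 to 3.92 and 1.52 to 12.6 in crypts. Their part in the lower member levels of villi was not tested.

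**Figure D5:**
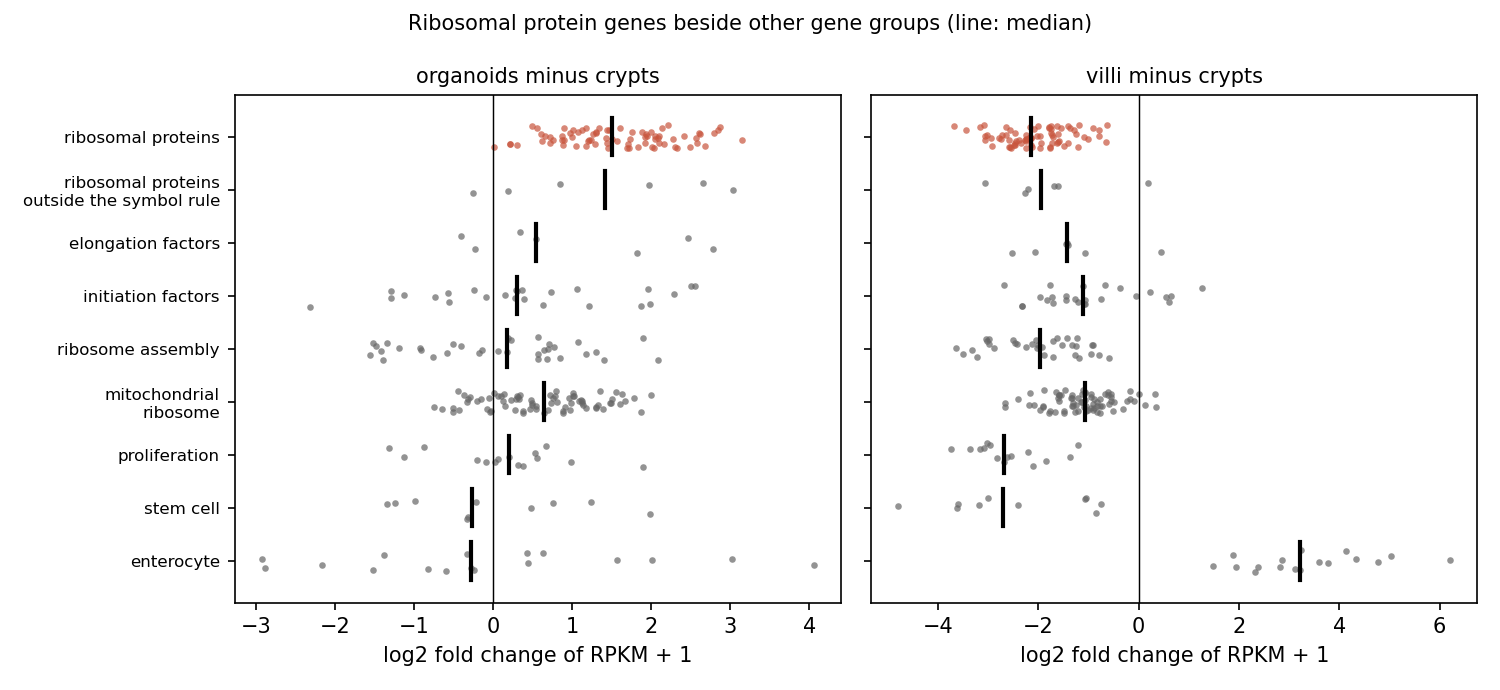
Log2 fold change of RPKM + 1 (x axis) of the ribosomal protein genes (red) and of other gene groups (grey), for organoids minus crypts (left) and villi minus crypts (right); each point is a gene and the black line is the median. In the left panel ribosomal proteins have a median of 1.50 and assembly genes of 0.18, and in the right panel the medians are -2.14 and -1.97.

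No member passed in any of the tests between origins. These tests called few genes of any kind, and an average over tissues can cancel opposite moves. They therefore do not show that origin matters less than tissue. Averaged over tissues, 0 of 77 members passed for ileum against duodenum, where 0.676% of all genes did, and 0 for jejunum against duodenum, where 0% did; at an unadjusted p under 0.05 limma called 0 and 5. In crypts alone 0 of 77 passed, against 0.0360%, 0% and 0.0270% of all genes for ileum against duodenum, jejunum against duodenum and ileum against jejunum. Unadjusted, 2, 1 and 0 members were under 0.05. limma-voom on the recovered reads also called 0 members in each of these tests. The crypt medians were -0.19, -0.39 and 0.18 on the log2 scale, beside a median difference of replicate 2 from replicate 1 of 0.21, -0.16 and 0.13 in duodenum, jejunum and ileum.

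In villi the 3 single libraries followed the length of the intestine. Duodenum was the lowest of the 3 for 73 of 80 members, ileum the highest for 70, and 65 stood in the order duodenum, jejunum, ileum. The share of all genes in these orders was not counted. Over the 73 standard members the ileal villus library exceeded the duodenal one by a median log2 of 1.16 (72 of 73 higher), against 0.275 over 10051 expressed genes, of which 73.1% were higher. The villus-to-crypt difference of the members accordingly had medians of -2.90 in duodenum, -1.84 in jejunum and -1.53 in ileum. A test of whether the ileum-duodenum difference of villi differed from that of crypts called 0 of 79 members (0% of 12597 genes), with a median of 1.42, 78 of 79 values positive and 16 unadjusted p under 0.05. Single villus libraries are assumed there to vary like crypt libraries. Over the same 3 villus libraries the summed RPKM of proliferation genes was 29.8, 45.5 and 50.5, of stem cell genes 20.6, 35.5 and 44.1, of enterocyte genes 112100, 60200 and 52870, and of lymphocyte genes 196, 99.0 and 49.4. Their part in the order of the villi was not tested.

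In organoids the order was another. Jejunum was the lowest of the 3 for 75 of 80 members and duodenum the highest for 60, with the share of all genes again not counted. The jejunal organoid library was below the duodenal one by a median log2 of -0.98 (1 of 73 standard members higher), against 0.14 over the 10051 expressed genes, of which 58.6% were higher. It also had the smallest share of its reads in genes of the 3 organoid libraries (58.8%, against 73.2% and 75.02%). As a share of gene reads the members took 6.48% there, the lowest of the 3. With 1 library per origin, a trait of the library and an effect of origin cannot be told apart. The test of the organoid ileum-duodenum difference against that of crypts called 0 of 79 members (0% of genes; 0 at an unadjusted p under 0.05), with a median of -0.17.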

How the data were processed

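Per the labels' protocols, a SOLiD 4 gave reads of 50 bp from poly(A) RNA of 12 libraries; they were aligned with BWA to mm9, per the submitters' processing notes. The sources used here give neither gene models nor a counting rule nor strand use, and reads from near-identical copies, overlapping or antisense genes cannot be assigned with certainty. The deposited values are RPKM per transcript, per the file headers; for a symbol with several transcripts the longest was kept. At least 99.9535% of the values of a library were whole multiples of 1 read within 0.02 of a read, which gave read numbers.

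Tissues were compared with limma 3.58.1 (R 4.3.3, mean-variance trend, two-sided) on log2(RPKM + 1), with tissue and origin as terms over all 12 libraries (7 residual degrees of freedom). The 3 origins serve as replicates of organoids and villi. Such fold changes understate the change of low genes. Crypt origins were compared over 6 libraries (3 residual degrees of freedom), and the change from duodenum to ileum was compared between tissues with 9 group means. Genes needed a level worth 10 reads of a library of median depth in 3, 2 or 1 libraries for these fits and 15 reads in all; the limit of 1 library was set with the data at hand. The threshold was a Benjamini-Hochberg adjusted p of 0.05, adjusted across every gene in the fit. The fit was tested on simulated data.

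Equal replicate numbers deviated together: the differences between crypt replicates 2 and 1 correlated at 0.414, 0.493 and 0.795 between origins over 10051 genes, so the numbers were taken as pairing the crypt libraries and a fit with the number as a block was run. Alternatives were another pseudocount, no filter, 4 scalings, limma-voom, another transcript choice, the standard members alone, crypt replicate 1 or 2 alone and each library left out. Members and gene lists were chosen with earlier results of these data known. Named genes are the paralogs, the non-subunits and members with listed roles, the 4 highest and 4 lowest levels, the most and least variable, the 5 largest changes per direction with no overlap, and up to 3 genes per list; the 8 smallest organoid changes and the genes of lists printed with levels were named after their values were seen. Protein sequences were not used here, and single-gene results of some genes that this rule names are not reported here.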

Additional observations from a re-analysis of the deposited data

Results flagged for a closer look

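A crypt library stood apart from the other 5 for 5 members, by a gap larger than 0.625 of the range of the 6 crypt libraries (Dixon's 95% criterion). For members the gap and the range were taken on log2(RPKM + 1), while the levels below are in RPKM. Of 81 groups examined 5 had such a gap, where chance gives about 1 in 20. Rpl14 was at 165 RPKM in crypt duodenum 1 and at 102 to 112 in the others. Rpl38 was at 123 RPKM in the same library and at 53.6 to 73.3 in the others, and Rpl9 at 13.0 against 7.41 to 8.84. Rpl15 was at 19.4 RPKM in crypt duodenum 2 and at 8.81 to 11.3 in the others. Rps28 was at 2.28 RPKM in crypt jejunum 1 and at 7.03 to 12.5 in the others.

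The share of gene reads taken by the members was higher in ileum than in duodenum in villi, by 0.459 percentage points, and lower in ileum in organoids, by -1.97 percentage points, and in crypts, by -0.737 to -0.079 percentage points over the pairs of libraries. The directions were opposite, with 1 library per origin in villi and organoids, and the difference was not tested.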

How the results depend on the processing

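The counts of members past the threshold kept their direction and stayed within 1.5 times the main count in every setting run. Members higher in organoids than in crypts numbered 44 to 68 when 1 library was left out (64 with all), 61 with a pseudocount of 0.1, 62 without the filter, 53 when scaled to reads in annotated genes, 58 when scaled to reads in other genes, 65 with median-ratio size factors, 48 under quantile normalisation and 62 with limma-voom. With crypt replicate 1 or 2 alone they numbered 64 and 63. Members lower in villi than in crypts numbered 60 (without the duodenal villus library) to 75 when 1 library was left out (73 with all). They numbered 76 under either scaling to gene reads, 69 with median-ratio size factors and 71 and 75 with crypt replicate 1 or 2 alone. All 77 stayed higher in organoids than in villi. The median log2 change of members between organoids and crypts was 0.995 under quantile normalisation, against 1.50. Scaling to gene reads moved the median over all genes to -0.17 for organoids and -0.43 for villi against crypts, with medians of 1.20 and -2.42 for members.

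With the replicate number as a block, 67 members were higher in organoids and 74 lower in villi. The block gained Rpl11, Rpl15 and Rpl24 (limma adjusted p = 0.0454, 0.0315 and 0.0416, against 0.0632, 0.0523 and 0.0729) and Rps14 in villi, and changed no other call. No member's direction reversed in any setting among those past the threshold. At the depth of the villus libraries, the median member rests on 49 to 126 reads, and single organoid and villus libraries leave differences between origins without replicates.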
